A study of Rattus norvegicus with 18 samples.

Results

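The 10 genes described here belong to the core circadian clock and its immediate output. They were measured in the rat soleus, a calf muscle usually made largely of slow fibres. They were selected by gene symbol and are represented by 19 of the 31042 probe sets tested, or 10 of 14217 named genes. Nr1d1, Nr1d2, Dbp, Tef, Hlf, Per2 and Per3 form an arm of 7 genes, called the Nr1d1 arm below, and Bmal1, Npas2 and Cry1 an arm of 3 genes, called the Bmal1 arm. The genes and the arms were chosen after differences between SNX and sham rats in these arrays had been seen. The differences are therefore given as a description, and the sign that sets the arms apart is no independent result. For each gene the probe set with the highest mean over the 18 arrays was used.

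The study used 9 male rats. In 5 of them (numbers 12, 18, 20, 37 and 49) chronic kidney disease was induced by 5/6 nephrectomy, abbreviated SNX, in which most of the kidney mass is removed, and 4 (numbers 11, 13, 15 and 17) had a sham operation. After 8 weeks all 9 rats underwent ligation and resection of the right femoral artery, and 24 hours after that RNA was prepared from the right and the left soleus. The groups are SNX right (5 arrays), SNX left (5), sham right (4) and sham left (4). The source labels call every SNX array ischemic and every sham array nonischemic, in conflict with the design text, so groups are named by operation and side. The left limb is an unligated muscle of an operated animal, and no rat without ligation was analysed here. The labels give no hour of sampling, and strain and age are not given in the sources used here.

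The clock is a feedback loop of transcription factors. BMAL1, paired with CLOCK or NPAS2, binds E-box elements and switches on the Per, Cry and Nr1d genes and the PAR bZIP genes Dbp, Tef and Hlf. PER and CRY proteins then inhibit BMAL1, and the NR1D (REV-ERB) receptors repress Bmal1, Npas2 and Cry1 through ROR elements, so that Bmal1 runs roughly in opposite phase to Nr1d1 and Dbp over the day. Skeletal muscle has its own clock of this kind, which is set by light, feeding and activity.

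The DNA elements through which the loop acts are shown for the members whose promoter window held a match. RefSeq windows of the rat assembly GRCr8, from 250 bases before to 50 bases after a gene's start, were matched for 8 of the 10 genes by symbol, and 9 windows were searched on both strands, since Nr1d1 has 2 starts. The E-box CACGTG is bound by BMAL1 with CLOCK or NPAS2. It lay in windows of 2 members, Tef and Nr1d1, and in 6.42% of all 33469 windows. In the next lines it is in capitals, on the gene's own strand, 198 to 193 bases upstream of Tef (chr7:115206599-115206664, plus strand) and 191 to 186 bases upstream of a start of Nr1d1 (chr10:84229610-84229675, minus strand).
Tef: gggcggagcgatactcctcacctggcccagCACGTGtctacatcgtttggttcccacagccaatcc
Nr1d1: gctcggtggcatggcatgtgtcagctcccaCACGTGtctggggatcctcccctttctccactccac

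The E-prime variant CACGTT, known from the Per2 promoter, lay in windows of 2 members, against 4.83% of all windows. In the Nr1d1 window of the other start (chr10:84231951-84232016, minus strand) it is on the opposite strand and is printed as its reverse complement in capitals, 174 to 169 bases upstream. The D-box, searched as TTATGTAA or TTACGTAA, is the element bound by DBP, TEF and HLF and by their competitor NFIL3. It lay in the window of 1 member, Per2, against 1.01% of all windows. The Per2 stretch (chr9:99497038-99497197, minus strand) has the D-box in capitals 192 to 185 bases upstream and the E-prime element in capitals 62 to 57 bases upstream. The ROR element, the site of NR1D and ROR receptors, was found in the window of 1 member, Bmal1, against 0.356% of all windows. It is in capitals, 20 to 10 bases upstream of the Bmal1 start (chr1:176766278-176766328, plus strand). A match describes letters in these windows and is not shown to be a bound site in these muscles.
Nr1d1, other start: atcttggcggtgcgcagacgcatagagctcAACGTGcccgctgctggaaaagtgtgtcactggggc
Per2: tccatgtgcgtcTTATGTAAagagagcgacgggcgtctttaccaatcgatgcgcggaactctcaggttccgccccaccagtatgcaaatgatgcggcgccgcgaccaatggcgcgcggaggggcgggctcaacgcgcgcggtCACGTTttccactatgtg
Bmal1: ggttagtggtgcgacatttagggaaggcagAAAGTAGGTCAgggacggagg

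Values are log2 units as deposited, so that 1 unit is a doubling. The medians of the arrays ran from 3.23 to 3.38. Among the ligated muscles, those of SNX rat 49 and sham rat 17, had the highest means of 9 macrophage markers, 8.06 and 8.69, and their arrays stood apart from the rest. Results without these rats are given beside the right limb comparison and, as counts, in the closing section. Means of 6 slow fibre markers, such as Myh7, lay between 11.0 and 14.9, with the lowest values on SNX right 20 and sham left 17. Means of 8 fast fibre markers, such as Myh4, lay between 14.4 and 14.9, so markers of both fibre types were bright. Whether a group had fewer cells of a type or less RNA per cell cannot be told apart in whole muscle.

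In the left, unligated limb the Nr1d1 arm, apart from Hlf and in part Per2, was higher, and the Bmal1 arm lower, in SNX rats 18, 20, 37 and 49 than in every sham rat. SNX rat 12 had values inside the sham range for 9 of the 10 genes. By log2 difference of group means, 6 of 7 genes of the Nr1d1 arm were above 0 (median 0.83) and 3 of 3 of the Bmal1 arm below 0 (median -0.75), against a median of 0.01 over all probe sets. With all 5 SNX rats, limma called 0 of the 10 genes at an adjusted p under 0.05, and 0.00644% of all probe sets (2 of 31042). An unadjusted p under 0.05 was found for 8 of the 10 genes, and for 6.25% of all probe sets. Without SNX rat 12 the same fit called 4 of 10 genes, and 0.0387% of all probe sets (12 of 31042). Rat 12 was singled out on these same clock gene values, so every p-value without it, here and below, is conditioned on the outcome and tests nothing. Nothing is read from these counts beyond the values, since the genes were chosen on this contrast.

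Nr1d1, which encodes the heme-sensing repressor REV-ERB alpha (probe set 1370816_at), had left limb values of 5.82, 7.61, 7.01, 7.74 and 8.10 in SNX rats 12, 18, 20, 37 and 49, against 5.62, 4.20, 4.87 and 6.49 in sham rats 11, 13, 15 and 17. The 4 SNX rats other than rat 12 lay above every sham rat, and rat 12 lay between sham rats 11 and 17. The difference of group means was 1.96 ± 0.47 (SE), a 3.89-fold higher mean in SNX rats.

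Nr1d2, its paralog encoding REV-ERB beta (1390430_at), had left limb values of 10.88, 11.64, 11.78, 11.83 and 11.75 in the SNX rats in the same order, against 10.58, 10.71, 10.69 and 10.99 in the sham rats. The SNX rats other than rat 12 lay close together and above all sham rats, and rat 12 was below sham rat 17. The log2 difference was 0.83 ± 0.18 with all rats and 1.01 ± 0.11 without rat 12 (limma, adjusted p = 0.352 and 0.00572).

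Dbp, the PAR bZIP activator that is a direct E-box output of the clock (1387874_at), had left limb values of 7.49, 7.93, 8.87, 9.78 and 9.74 in SNX rats, against 7.02, 7.49, 7.61 and 7.05 in sham rats. Its spread among SNX rats (SD 1.04, n = 5) was wider than among sham rats (SD 0.30, n = 4), and rat 18 lay only slightly above the highest sham rat. Group means differed by 1.47 ± 0.45.

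Tef, the second PAR bZIP gene (1390819_at), had left limb values of 7.67, 8.65, 8.66, 8.59 and 8.89 in SNX rats, against 7.91, 7.60, 7.56 and 8.21 in sham rats, a log2 difference of 0.67 ± 0.28. Rat 12 was again the only SNX rat inside the sham range. Hlf, the remaining gene of this family (1386641_at), had values of 8.92, 8.33, 8.50, 8.98 and 9.12 in SNX rats, against 8.94, 8.87, 8.87 and 9.40 in sham rats. It did not follow Dbp and Tef: the groups overlapped, rats 18 and 20 were the lowest of all 9, and the log2 difference was -0.25 ± 0.26.

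Per2, which encodes a period protein that inhibits BMAL1 (1368303_at), had left limb values of 8.49, 8.38, 9.97, 9.43 and 9.14 in SNX rats, against 8.04, 9.14, 9.01 and 8.33 in sham rats. Only rats 20 and 37 exceeded every sham rat, and the log2 difference of 0.45 ± 0.31 was within the spread. Per3, the period gene with a role in sleep timing (1378745_at), had values of 3.53, 5.89, 6.27, 6.06 and 6.64 in SNX rats, against 3.34, 3.55, 3.07 and 3.31 in sham rats. All sham values and that of rat 12 lay near the array medians, where the probe set was dim, and the other SNX rats were well above all of them. The log2 difference was 2.36 ± 0.59 with all rats and 2.90 ± 0.19 without rat 12 (limma, adjusted p = 0.362 and 3.06e-05).

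Bmal1, the activator at the centre of the loop (1370510_a_at), had left limb values of 6.49, 5.18, 4.25, 4.80 and 4.75 in SNX rats, against 6.22, 5.90, 6.60 and 6.58 in sham rats. The SNX rats other than rat 12 were below every sham rat, and rat 12 was within the sham range. The log2 difference was -1.23 ± 0.42 with all rats and -1.58 ± 0.21 without rat 12 (limma, adjusted p = 0.621 and 0.0267).

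Npas2, a partner of BMAL1 (1383439_at), had values of 5.74, 4.44, 4.46, 4.28 and 3.86 in SNX rats, against 5.32, 5.18, 5.28 and 5.44 in sham rats, a log2 difference of -0.75 ± 0.33. Here rat 12 had the highest value of all 9 rats, above the sham range. Cry1, a cryptochrome that represses BMAL1 (1392640_at), had values of 8.29, 7.77, 7.74, 7.34 and 7.67 in SNX rats, against 8.65, 8.19, 8.33 and 8.73 in sham rats. Rat 12 was again inside the sham range and the other SNX rats below it. The log2 difference was -0.71 ± 0.16 with all rats and -0.84 ± 0.11 without rat 12 (limma, adjusted p = 0.352 and 0.0267).

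**Figure D1:**
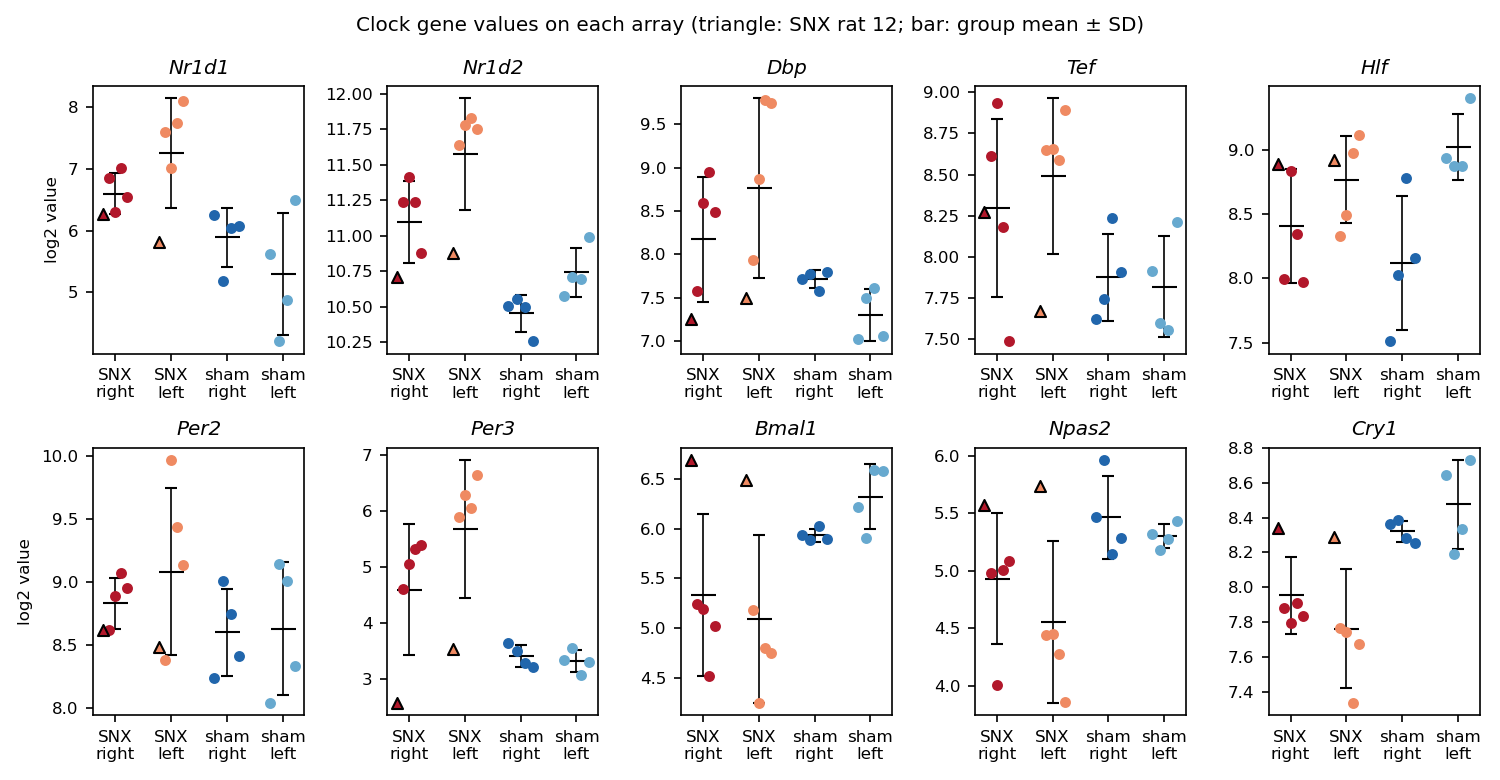
Log2 values of the 10 clock genes on each of the 18 arrays, by operation and side, with the group mean and SD. In the left limb SNX rat 12 (triangle) is inside the sham range for 9 of 10 genes, while the other 4 SNX rats are above it for Nr1d1, Nr1d2, Dbp, Tef and Per3 and below it for Bmal1, Npas2 and Cry1.

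In the right, ligated limb the 3 genes of the Bmal1 arm were again below every sham rat in SNX rats 18, 20, 37 and 49, and Nr1d1, Nr1d2 and Per3 above every sham rat. The medians of the log2 differences were 0.46 for the Nr1d1 arm (7 of 7 above 0) and -0.53 for the Bmal1 arm (3 of 3 below 0), against 0.03 over all probe sets. Limma called 0 of 10 genes and 0% of all probe sets in this limb, with an unadjusted p under 0.05 for 2 of 10 genes and 9.25% of all probe sets. Without SNX rat 12 it called 1 gene, Per3, and 0.0161% of all probe sets (5 of 31042). The value ranges of all 5 SNX rats and the sham rats did not overlap for 2 of 10 genes, Nr1d1 and Nr1d2, against 8.25% of all probe sets. In the left limb this held for 0 of 10 genes and 2.52% of all probe sets.

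Per3 had right limb values of 2.58, 4.61, 5.06, 5.33 and 5.39 in SNX rats 12, 18, 20, 37 and 49, against 3.64, 3.50, 3.28 and 3.23 in sham rats 11, 13, 15 and 17. Rat 12 was the lowest of all 9 rats and the other SNX rats were the highest. With all rats the log2 difference was 1.18 ± 0.59, and it was 1.68 ± 0.19 without rat 12 (limma, adjusted p = 0.498 and 0.0155).

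Nr1d2 had right limb values of 10.71, 11.24, 11.41, 11.24 and 10.88 in SNX rats, against 10.50, 10.55, 10.50 and 10.26 in sham rats, and the log2 difference was 0.64 ± 0.18. Nr1d1 had values of 6.27, 6.85, 6.31, 7.02 and 6.54 in SNX rats, against 6.25, 5.19, 6.05 and 6.08 in sham rats, and the difference was 0.71 ± 0.47. The lowest SNX and the highest sham value of Nr1d1 were nearly equal, so its lack of overlap rests on a gap that is small beside the SD of 0.33 among SNX rats.

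Dbp had right limb values of 7.26, 7.57, 8.60, 8.95 and 8.48 in SNX rats, against 7.72, 7.77, 7.57 and 7.80 in sham rats. Rat 12 and, only just, rat 18 were below every sham rat, and rats 20, 37 and 49 above. The Tef values were 8.27, 8.61, 8.93, 8.18 and 7.49 in SNX rats, against 7.62, 7.74, 8.23 and 7.91 in sham rats, and rat 49, whose right array stood apart, had the lowest value of all. Hlf lay between 7.97 and 8.89 in SNX rats and between 7.51 and 8.78 in sham rats, and Per2 between 8.62 and 9.07 in SNX rats and between 8.24 and 9.01 in sham rats, with wide overlap. The right limb differences of these members were 0.46 ± 0.45 for Dbp, 0.42 ± 0.28 for Tef, 0.29 ± 0.26 for Hlf and 0.23 ± 0.31 for Per2, each less than 2 times its SE.

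Bmal1 had right limb values of 6.70, 5.25, 5.19, 4.52 and 5.02 in SNX rats, against 5.93, 5.88, 6.03 and 5.90 in sham rats. Rat 12 was the highest of all 9 rats, and the sham rats lay close together. Group means differed by -0.60 ± 0.42 with all rats and by -0.94 ± 0.21 without rat 12 (limma, adjusted p = 0.508 and 0.375). Cry1 had values of 8.34, 7.88, 7.80, 7.91 and 7.84 in SNX rats, against 8.36, 8.39, 8.28 and 8.26 in sham rats, a difference of -0.37 ± 0.16. Npas2 had values of 5.57, 4.98, 4.01, 5.01 and 5.08 in SNX rats, against 5.47, 5.97, 5.14 and 5.28 in sham rats, a difference of -0.53 ± 0.33. For both genes rat 12 was inside the sham range and the other SNX rats below it. Without SNX rat 49, whose right array stood apart, the right limb differences were 0.72 for Nr1d1, 0.70 for Nr1d2, 0.98 for Per3, 0.62 for Tef, -0.52 for Bmal1 and -0.34 for Cry1. Without sham rat 17 those of the same genes were 0.77, 0.58, 1.12, 0.43, -0.61 and -0.39. Leaving out each rat in turn, the right limb difference lay between 0.26 and 0.69 for Dbp, 0.08 and 0.51 for Hlf and -0.94 and -0.40 for Bmal1.

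**Figure D2:**
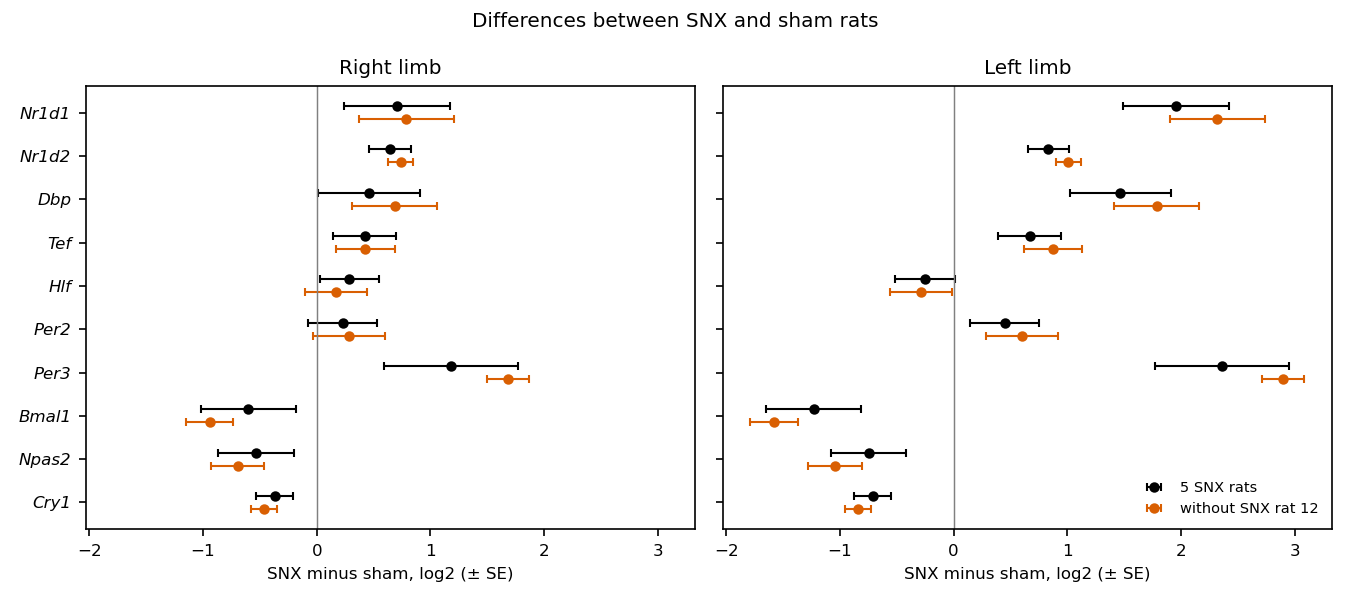
SNX minus sham log2 differences of the 10 genes in each limb with their standard errors from limma, with all 5 SNX rats (black) and without SNX rat 12 (orange). In the left limb Per3 moves from 2.36 to 2.90 and Bmal1 from -1.23 to -1.58 when rat 12 is left out.

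The operation belongs to the rat, so the means of both limbs were also compared over 5 SNX and 4 sham rats. Rat means of Per3 lay between 3.06 and 6.01 in SNX rats (median 5.66), against 3.18 to 3.52 in sham rats. Rat means of Bmal1 lay between 4.66 and 6.59 in SNX rats (median 4.88), against 5.89 to 6.31 in sham rats. The log2 differences were 1.77 ± 0.57 for Per3, 1.33 ± 0.39 for Nr1d1, 0.96 ± 0.41 for Dbp, 0.74 ± 0.15 for Nr1d2 and 0.55 ± 0.17 for Tef. In the Bmal1 arm they were -0.92 ± 0.39 for Bmal1, -0.64 ± 0.26 for Npas2 and -0.54 ± 0.13 for Cry1. Those of Per2 (0.34 ± 0.26) and Hlf (0.02 ± 0.17) were small beside their errors. Limma called 0 of 10 genes and 0% of all probe sets, with an unadjusted p under 0.05 for 8 of 10 genes and 8.36% of all probe sets. Without SNX rat 12 it called 2 genes, Per3 and Nr1d2 (both adjusted p = 0.0351), and 0.00644% of all probe sets (2 of 31042). The genes and the omission of rat 12 were both picked on these values, so this count tests nothing.

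The arms were set against each other on each array as the mean of the 7 centred genes of the Nr1d1 arm minus that of the 3 of the Bmal1 arm. In the right limb this contrast was -1.0, 0.25, 0.98, 0.85 and 0.33 in SNX rats 12, 18, 20, 37 and 49, and between -0.99 and -0.54 in the sham rats. In the left limb it was -0.94, 0.90, 1.59, 1.80 and 1.98 in the SNX rats, and between -1.02 and -0.70 in the sham rats. The 9 rats thus formed a set of 4 SNX rats with positive contrasts in both limbs and a set of rat 12 and the 4 sham rats with negative ones. For rat 12 this average hides differences from the sham rats in the right limb. There it was inside the sham range for only 3 of 10 genes, against 9 of 10 in the left limb. Its right limb values of Nr1d1, Nr1d2, Tef and Hlf were above those of every sham rat. The margin was small for Nr1d1 (6.27, highest sham 6.25) and Tef (8.27, highest sham 8.23). Its Dbp (7.26) and Per3 (2.58) values were below every sham rat and its Bmal1 value (6.70) above. These 3 were opposite in sign to the group differences of the same genes. Rat 12 carries the number between those of sham rats 11 and 13, while the numbers of the other SNX rats are above those of all sham rats. In these 4 rats the operation and the rat number cannot be told apart, and the part of the hour of sampling was not tested.

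**Figure D3:**
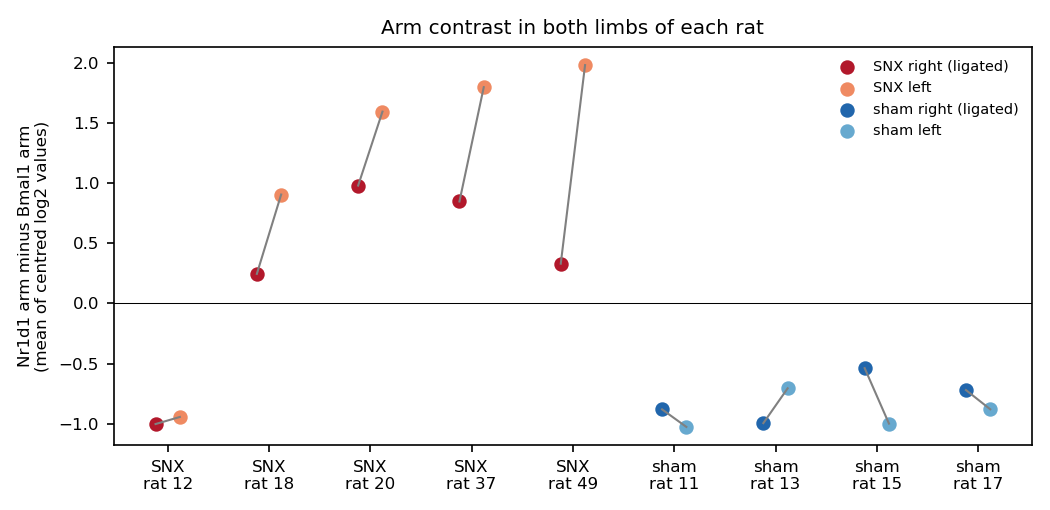
Arm contrast (mean of the centred log2 values of 7 genes minus that of 3 genes) in the right and left soleus of each rat, SNX rats at the left. SNX rat 12 is at -1.0 and -0.94, close to the sham rats, and the other SNX rats are between 0.25 and 1.98.

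Other cell types were checked through marker lists, because their levels also differed between SNX and sham rats. In the left limb all 9 macrophage markers had lower group means in SNX rats (median log2 difference -1.06), and their mean level was 5.02 to 5.70 in SNX rats, against 5.72 to 6.62 in sham rats. The medians were -0.82 for 6 fibroblast, -1.63 for 5 adipocyte and -2.59 for 3 Schwann cell markers. Of the macrophage, fibroblast, adipocyte and Schwann cell lists 0 markers passed limma's adjusted p under 0.05. An unadjusted p under 0.05 was found for 4 of 9, 5 of 6, 3 of 5 and 3 of 3, against 6.25% of all probe sets. The 5 endothelial markers (median -0.28) and the 5 smooth muscle and pericyte markers (median -0.33) were also all below 0. Limma called 0 of them, with an unadjusted p under 0.05 for 1 of 5 in each list. SNX rat 12 had the lowest left limb mean of the SNX rats for the macrophage (5.02), adipocyte (5.53) and Schwann cell (6.28) lists, all below the sham rats. Its fibroblast mean (10.39) was also below the sham rats, and that of rat 18 was lower still (10.14). The part of these cell types in the clock gene differences was not tested. In the right limb the median differences were -0.67 for the macrophage, -1.12 for the adipocyte, -1.09 for the Schwann cell and -0.47 for the fibroblast markers. Limma called 0 of these, with an unadjusted p under 0.05 for 2 of 9, 1 of 5, 0 of 3 and 3 of 6, against 9.25% of all probe sets. The right limb medians were -0.40 for the endothelial (5 of 5 below 0) and -0.17 for the smooth muscle and pericyte markers (4 of 5 below 0). Limma again called 0 of them, with an unadjusted p under 0.05 for 2 of 5 and 0 of 5. The T cell markers were at a mean of 2.58 to 2.75 on every array, below the array medians.

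The other probe sets of the members mostly followed the main probe set where they were bright enough. A second Nr1d2 probe set (1370541_at) differed by 0.74 ± 0.18 in the left and 0.75 ± 0.18 in the right limb. Left limb differences of the other Tef probe sets were 0.78 ± 0.20 (1385374_at) and 0.72 ± 0.28 (1369919_at). Hlf probe sets 1385585_at and 1374709_at differed by -0.05 ± 0.34 and -0.19 ± 0.41 in the left limb, also small beside their errors. A second probe set of Per3 (1388239_at) averaged 2.64 in SNX and 2.58 in sham left limbs and did not show the difference of the first, and probe sets Nr1d2 1370540_at, Hlf 1384811_at and Per2 1378560_at were likewise dim. The difference of Per3 thus rests on a single probe set.

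The ligated and unligated muscle of the same rat were compared next. Nr1d2 was lower in the right limb of 9 of 9 rats, Hlf of 8 of 9 and Per3 of 7 of 9, and the Bmal1 arm had no common direction. Over all 9 rats limma called 1 of 10 genes, Per3, which fell, and 3.51% of all probe sets (1090 of 31042). An unadjusted p under 0.05 was found for 3 of 10 genes and 25.8% of all probe sets. Markers of other cell types moved in the same comparison. The medians were 1.09 for 9 macrophage markers (9 above 0, 1 called), 0.49 for 6 fibroblast markers (6 above 0, 1 called) and 1.10 for 3 Schwann cell markers (3 above 0, 0 called, 1 with an unadjusted p under 0.05). Limma called 3 of 5 endothelial markers, of which Kdr and Pecam1 were higher and Tek lower in the ligated limb, and 2 of 5 smooth muscle and pericyte markers, Pdgfrb higher and Rgs5 lower. These were named after their values were seen, and the part of these cells in the clock gene changes was not tested.

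Right minus left values of Per3 were -0.95, -1.29, -1.22, -0.73 and -1.25 in SNX rats 12, 18, 20, 37 and 49, against 0.30, -0.05, 0.21 and -0.08 in sham rats 11, 13, 15 and 17. All SNX rats had a lower value in the ligated limb, and sham rats were near 0 on both sides. In rat 12 and the sham rats the probe set was near or below the array medians in both limbs, so their changes are differences between dim values. The mean of the SNX and sham changes was -0.50 ± 0.07 (limma, adjusted p = 0.0206). This call was lost without sham rat 13 (adjusted p = 0.0638), 15 (0.0504) or 17 (0.0512) and with an intensity trend in the error (0.102). The range of the adjusted p over all alternatives of this probe set was 0.0206 to 0.102.

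Right minus left values of Nr1d2 were -0.17, -0.40, -0.37, -0.59 and -0.87 in SNX rats, against -0.07, -0.16, -0.20 and -0.73 in sham rats. The 2 lowest values were those of rats 49 and 17, whose right arrays stood apart. The mean change of -0.38 ± 0.09 missed the threshold (limma, adjusted p = 0.0575). Hlf had values of -0.03, -0.34, 0.34, -0.63 and -1.15 in SNX rats, against -1.43, -0.85, -0.09 and -1.24 in sham rats, and its mean change of -0.63 ± 0.18 also missed it (adjusted p = 0.0895).

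Within SNX rats alone limma called 0 of 10 genes and 0.0451% of all probe sets (14 of 31042), with an unadjusted p under 0.05 for 1 of 10 genes and 7.92% of all probe sets. With the rat as a fixed replicate block it called Per3 (log2 change -1.09, adjusted p = 0.0217), against adjusted p = 0.682 without the block and a range of 0.0217 to 1.0 over the alternatives. Within sham rats it called 0 of 10 genes and 0.148% of all probe sets (46 of 31042), with an unadjusted p under 0.05 for 1 of 10 genes and 12.3% of all probe sets. Dbp was lower in the right limb of 5 of 5 SNX rats (-1.26 to -0.23), and in sham rats its change lay between -0.03 and 0.74. Nr1d1 was lower in the right limb of 4 of 5 SNX rats, and of 1 of 4 sham rats. The test of these differences between SNX and sham rats called 0 of 10 genes and 0% of all probe sets by limma. An unadjusted p under 0.05 was found for 0 of 10 genes and 1.41% of all probe sets in this fit, which does not pair the limbs, and the differences of changes were -1.01 ± 0.63 for Dbp, -1.25 ± 0.66 for Nr1d1 and -1.18 ± 0.84 for Per3. With the rat as a fixed replicate block, which pairs them, the same differences had SEs of 0.26, 0.45 and 0.14. An unadjusted p under 0.05 was then found for 4 of 10 genes (Dbp, Nr1d1, Per3 and Bmal1), and for 2.97% of all probe sets, and limma again called 0 of 10 genes (lowest adjusted p = 0.912, for Per3). A random replicate block gave SEs of 0.48, 0.53 and 0.62, with an unadjusted p under 0.05 for 1 gene, Nr1d1.

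**Figure D4:**
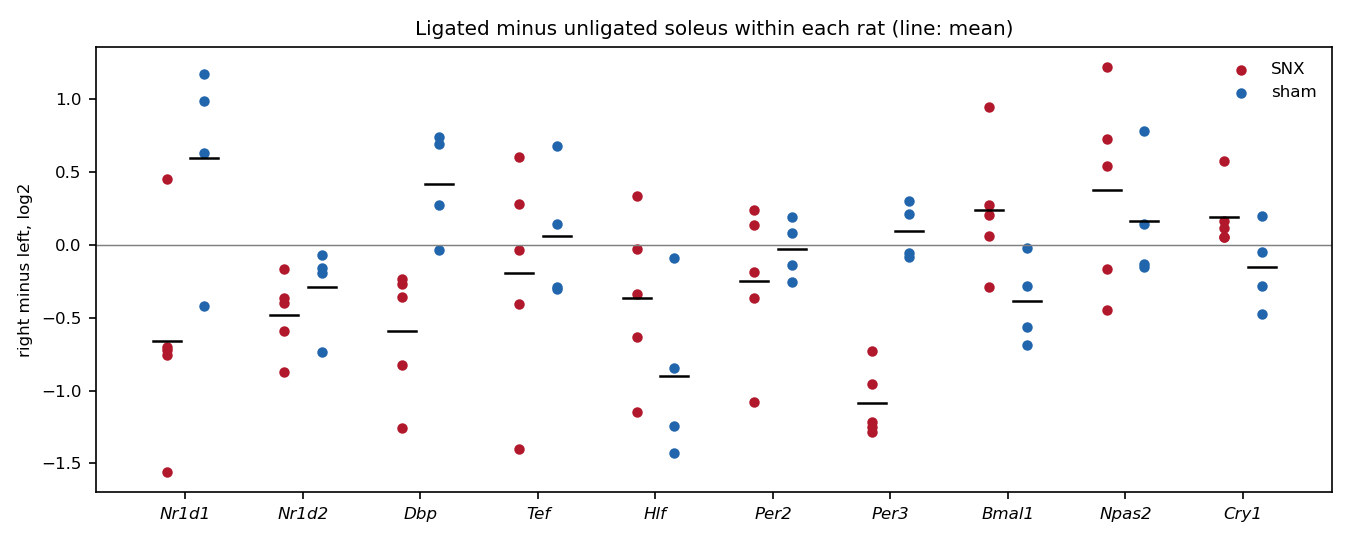
Right (ligated) minus left log2 value of each gene within each rat, SNX rats at the left of each pair and sham rats at the right, with lines at the means. Nr1d2 is below 0 in 9 of 9 rats, and Per3 is between -1.29 and -0.73 in SNX rats and between -0.08 and 0.30 in sham rats.

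A list of further genes of the clock mechanism had 14 measured members, and limma called 0 of 14 in each of the 7 comparisons. Unadjusted p-values under 0.05 were found for 0 of 14 in the right and 2 of 14 in the left limb for SNX against sham rats, and for 5 of 14 for right against left over all rats. The shares over all probe sets were 9.25%, 6.25% and 25.8% in the same comparisons. The 2 genes were Nfil3 and Bhlhe41. Clock, the main partner of BMAL1, lay between 9.73 and 10.18 on all 18 arrays. Within this narrow range its Pearson correlation with the arm contrast was -0.64. Of 6844 genes with a mean of at least 6 log2 units, 219 had a correlation larger in size.

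Nfil3, the repressor that competes with DBP, TEF and HLF for the D-box, had left limb values of 9.82, 7.88, 8.51, 7.35 and 7.15 in SNX rats 12, 18, 20, 37 and 49, against 9.29, 9.79, 9.89 and 9.32 in sham rats. In the right limb its values were 9.10, 8.14, 8.28, 7.73 and 7.82 in SNX rats, against 8.38, 9.18, 9.33 and 9.57 in sham rats. Rat 12 was within the sham range in both limbs, and the other SNX rats were below it. The log2 differences were -1.43 ± 0.45 in the left and -0.90 ± 0.45 in the right limb (limma, adjusted p = 0.541 and 0.498). Bhlhe41, which encodes DEC2, a repressor at E-boxes, had a rat mean difference of 0.56 ± 0.15 (adjusted p = 0.510).

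**Figure D5:**
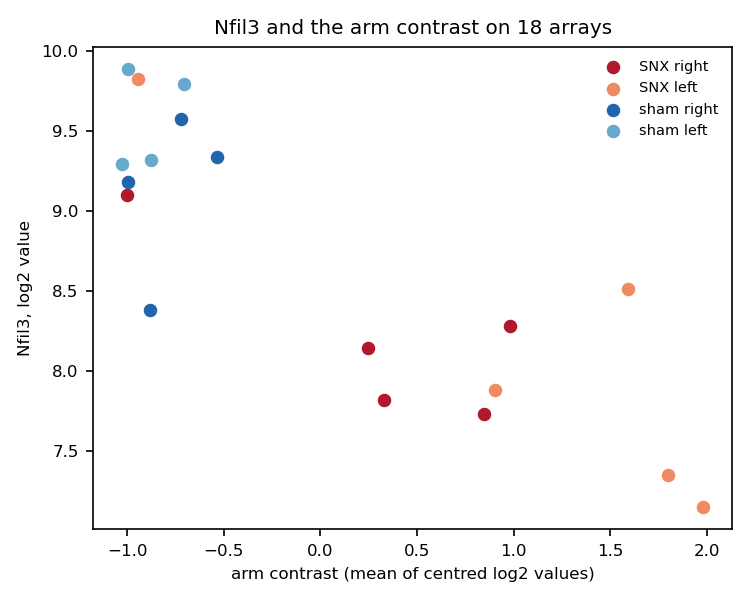
Nfil3 log2 value against the arm contrast on the 18 arrays, by operation and side. The arrays of SNX rats 18, 20, 37 and 49 lie at positive contrasts with Nfil3 between 7.15 and 8.51, and those of SNX rat 12 lie among the sham arrays.

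All 12 genes of a list of clock outputs were measured. Limma called 0 of 12 for SNX against sham rats in either limb, with an unadjusted p under 0.05 for 2 of 12 in the right and 5 of 12 in the left limb. Over all probe sets the shares were 9.25% and 6.25%. Cdkn1a, the cell cycle inhibitor p21, had left limb values of 8.56, 6.95, 7.18, 6.91 and 6.91 in SNX rats, against 7.92, 8.78, 8.17 and 8.94 in sham rats, a log2 difference of -1.15 ± 0.42. Rat 12 was again inside the sham range and the other SNX rats below it. Klf10, a zinc finger repressor of metabolic genes, differed by -0.96 ± 0.26 in the left limb, and here rat 12 (9.49) was with the other SNX rats (9.04 to 9.59), below the sham range (9.63 to 11.09). Por, the cytochrome P450 reductase, rose in the ligated limb over all rats by 0.95 ± 0.17 (limma, adjusted p = 0.0354). It was the only output of the 12 called in that comparison, in which 3.51% of all probe sets were called.

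Glucocorticoids reset tissue clocks, so 8 of their target genes were listed, of which 7 were measured. Limma called 0 of 7 for SNX against sham rats in either limb, with an unadjusted p under 0.05 for 2 of 7 in the right and 1 of 7 in the left limb. The shares over all probe sets were 9.25% and 6.25%. The list had no common direction in the left limb, with 3 of 7 differences above 0 and 4 below. In the right limb 6 of 7 were below 0 (median -0.31, against 0.03 over all probe sets). Array means of the list there were 9.32 to 9.88 in SNX rats and 9.91 to 10.35 in sham rats. On rat means 6 of 7 differences were also below 0 (median -0.26, against 0.02 over all probe sets). The part of glucocorticoids in the clock gene differences was not tested. Fkbp5, a standard glucocorticoid target, had left limb values of 8.86, 8.81, 8.67, 8.54 and 8.80 in SNX rats, against 9.48, 9.09, 8.82 and 9.09 in sham rats. Rat 12 was the only SNX rat inside the sham range here, by a margin that is small beside the spread. Right limb values of Fkbp5 were 9.37, 8.28, 9.31, 8.26 and 8.30 in SNX rats, against 8.93, 9.14, 9.52 and 8.46 in sham rats. There both rat 12 and rat 20 were inside the sham range. Left limb values of Sgk1, another listed target, were 9.62, 8.76, 9.97, 8.93 and 9.18 in SNX rats. In sham rats they were 9.93, 9.65, 9.89 and 10.53. For this gene rat 20 was inside the sham range and rat 12 just below it. Mt2A, a metallothionein, rose in the right limb over all rats by 3.58 ± 0.45 (adjusted p = 0.0161). Its right limb values were 7.07, 7.59, 6.76, 7.90 and 10.61 in SNX rats, against 9.85, 8.87, 8.27 and 11.47 in sham rats. The calls of Por and Mt2A over all 9 rats, like that of Per3, were lost with an intensity trend in the error, under which limma called 0 of 31042 probe sets.

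The genes whose pattern was most like the arm contrast were ranked by Pearson correlation over the 18 arrays among 6844 genes with a mean of at least 6 log2 units, leaving out the members themselves. These correlations describe 18 arrays from 9 rats in separate sets and carry no p. The highest were those of Pin4, a peptidyl-prolyl isomerase (r = 0.88), Sgtb, a co-chaperone (0.84), Psmd1, a proteasome subunit (0.81), Tbc1d10c (0.81), Riox2 (0.81) and Cldn12, a claudin (0.79). The lowest were those of Medag, known from adipocyte differentiation (-0.92), Wsb1, a ubiquitin ligase subunit (-0.88), Atp8b1, a phospholipid flippase (-0.87), Atf5, a stress transcription factor (-0.85), Nfil3 (-0.85) and Cdkn1a (-0.84). Medag averaged 8.98 ± 0.91 in SNX and 10.31 ± 0.07 in sham left limbs, and 9.72 ± 0.53 in SNX and 10.80 ± 0.31 in sham right limbs (SD, n = 5 and 4). Sgtb averaged 6.79 ± 0.45 in SNX and 5.77 ± 0.35 in sham left limbs (SD, n = 5 and 4).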

How the data were processed

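Soleus RNA of 9 rats was measured on 18 Affymetrix arrays, from 2 micrograms of total RNA each per the labels' protocols. The table deposited by the authors holds normalized log2 values. The submitters' processing notes name RMA, GCRMA and Partek without versions and without saying which produced these values. These methods differ most for dim probe sets. Arrays carry no read depth, so the number of arrays limits the precision.

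The 57 control probe sets were left out. Symbols came from the platform annotation and were updated through the RefSeq table of GRCr8 (20758 of 20826 probe sets with 1 gene matched, 436 list several genes and 9780 none). Group means were fitted to all 31042 probe sets with limma 3.58.1 in R 4.3.3, with two-sided p-values adjusted by Benjamini-Hochberg over all probe sets and a threshold of 0.05, in 7 comparisons. Rat means and right minus left differences were fitted over the 9 rats. The title number was read as the rat, so the limbs are paired by animal. Left and right deviations of a rat correlated at over 0.1 in 7 of 9 rats (consensus 0.297), and at 0.04 in rat 15 and -0.0009 in rat 49. The right array that best matched a left array was that of the same rat in only 4 of 9 rats. The block is given where it changes a call. The fit was tested on simulated data. The labels do not say whether arrays were run in batches.

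The members, the arms, the lists of other clock genes, outputs, glucocorticoid targets and cell type markers, and the tests were chosen with earlier results of these data known. All members are named. Other list genes are named if past the threshold or among the largest differences, and Clock, Fkbp5 and Sgk1 were picked after their values were seen. The 6 most and 6 least correlated genes are named, without symbols starting with LOC or RGD. Alternatives were the rat as a replicate block, median centring, quantile normalization, probe sets with a mean of at least 5, an intensity trend with robust prior, fits of only the compared groups, other probe sets and leaving out each rat.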

Additional observations from a re-analysis of the deposited data

Results flagged for a closer look

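Each gene was checked in 40 combinations of gene and group for an array far from the others of its group by Dixon's criterion, which chance meets in about 1 of 20 groups, and 6 met it. The arrays of SNX rat 12 gave 5 of the 6. In the left limb they were Nr1d2 at 10.88, against 11.64 to 11.83 in the other SNX rats, Tef at 7.67, against 8.59 to 8.89, and Per3 at 3.53, against 5.89 to 6.64. In the right limb they were Per3 at 2.58, against 4.61 to 5.39, and Cry1 at 8.34, against 7.80 to 7.91. The other was Hlf in the left limb of sham rat 17 at 9.40, against 8.87 to 8.94 in the other sham rats.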

How the results depend on the processing

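No SNX minus sham difference of the 10 main probe sets changed sign in the left or right limb under 149 alternative values each. For rat means 5 of 129 did, all of Hlf. Some alternatives, such as the random block and the intensity trend, leave the difference of means as it is and could not change its sign. Other probe sets were not counted here. Of these, the dim Per2 1378560_at (-0.02) and Hlf 1384811_at (0.01) had the opposite sign in the left limb. Per2 1378560_at also had it on rat means (-0.001). Leaving out each rat in turn gave 0 to 1 genes called in the right limb, 0 to 4 in the left limb and 0 to 2 on rat means, the highest each time without SNX rat 12. For right against left over all 9 rats it gave 0 to 1, with 0 without sham rat 13, 15 or 17. There, the intensity trend with robust prior gave 0 genes called, and keeping probe sets with a mean of at least 5 gave 2 of 9 tested, Nr1d2 and Hlf, since Per3 was not kept. All probe sets called there numbered 1090, 2538 with that filter, 0 with the trend and 100 to 926 without each rat. With the rat as a fixed replicate block, right against left in SNX rats gave 1 gene, Per3, and a random replicate block gave 0 in every comparison it was run in. The random replicate block called 99 probe sets, against 14 without it, in SNX rats and 559, against 46, in sham rats, the fixed one 6 and 117. The dim second probe set of Per3 gave differences of 0.05 in the left and 0.04 in the right limb. Without SNX rat 49 and without sham rat 17, whose right arrays stood apart, 0 of 10 genes were called for SNX against sham rats in either limb.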
